A study of Mus musculus with 9 samples.

Results

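Spp1, Gpnmb, Igf1, Lpl, Cst7, Clec7a, Ch25h, Lyz2 and Cd52 are 9 genes of the disease-associated microglia programme, and they were followed over time in microglia sorted from mouse brain 7, 30 and 90 days after a traumatic brain injury. They were taken from the deposited table by symbol, as 9 of its 49671 listed genes. All 9 passed a filter of at least 1 CPM (reads scaled to a library total of 1000000 CPM) in at least 3 libraries, as did 15041 genes in all. The 9 were chosen because their levels in these same libraries were known to differ between times. Their values are therefore given as a description, with standard errors and no test.

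The animals were male C57BL/6 mice (CD45.2) that received marrow from B6.CD45.1 donors (B6.SJL-Ptprca Pepcb/BoyJ) at 8 weeks of age, after busulfan and irradiation with the head shielded. At 16 weeks every mouse had a controlled cortical impact, in which a piston strikes the exposed cortex. All 3 times therefore share the chimerism, the conditioning and the injury, and no uninjured or sham library was analysed here. Microglia were sorted as CD45.2 cells, a gate that leaves out cells of the donor marrow but keeps any blood cells that descend from recipient marrow. There were 3 libraries, each of 1 mouse, at 7, at 30 and at 90 days, and age after injury rises with time, so that time since injury and age cannot be told apart.

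Microglia that meet damaged tissue, dying cells or myelin debris can shift to a state called disease-associated. In that state they raise genes for phagocytosis, lysosomal digestion, lipid handling and secreted factors, in large part under the receptor Trem2 and its adaptor Tyrobp. The 9 genes are among those most often used to recognise this state in mouse brain. They encode secreted factors (Spp1, Igf1), enzymes of lipid handling (Lpl, Ch25h), surface proteins (Gpnmb, Clec7a, Cd52) and lysosomal or secreted proteins of digestion and defence (Cst7, Lyz2).

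Depth was 7210985 to 12965926 counted reads a library, so that 3 reads corresponded to 0.231 to 0.416 CPM. Intervals and floors from such reads cover counting error only. Summed CPM of 12 homeostatic microglia markers (Cx3cr1, P2ry12, Tmem119 and others) lay between 16648 and 20781 at day 7, between 22761 and 24171 at day 30, and between 18339 and 25524 at day 90, and none of the 12 was at 0 throughout. The first mouse at day 90 (replicate 1) stood apart. Its median correlation with the other libraries was 0.837, against 0.866 to 0.887 for the rest, and it had reads in 14039 genes, the fewest of the 9 libraries. Values without it are given beside several of the results that rest on it.

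Every one of the 9 genes was at its lowest mean level at day 90, at 3.29% of its day 7 mean for Spp1 and up to 39.6% for Cd52. At day 30 the means stood between 38.3% (Gpnmb) and 93.9% (Cst7) of day 7. In bulk sorted cells, fewer cells in the state and less RNA of these genes per cell cannot be told apart. The values by library follow, grouped by what the proteins do.

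Spp1 encodes osteopontin, a secreted glycoprotein that binds integrins and CD44. It had 314, 150 and 311 CPM in the 3 libraries at day 7, 72.9, 159 and 131 CPM at day 30, and 0, 6.17 and 19.4 CPM at day 90. Day 90 lay wholly below both earlier times, whereas 1 day 30 library exceeded the lowest day 7 library. Means were 259 ± 93.8, 121 ± 44.1 and 8.51 ± 9.89 CPM at days 7, 30 and 90 (SD, n = 3 each). The mean at day 90 was 30.4-fold lower than at day 7 and 14.2-fold lower than at day 30. On the log2(CPM + 1) scale the difference was -5.55 ± 0.56 (SE) for day 90 against day 7 and -4.46 for day 90 against day 30. Replicate 1 at day 90 had 0 reads of Spp1, where 65 and 229 reads were counted in the other two. Without that library the difference was -4.35 for day 90 against day 7 and -3.27 for day 90 against day 30. With 0 reads in 1 library, the day 90 against day 7 value also moved with the pseudocount, to -6.73 at 0.1 CPM and -4.50 at 5 CPM, and was -4.91 in edgeR. It was -4.42 with the replicate block, which also sets that library aside, since replicate number 1 occurs only at day 90.

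Igf1 encodes insulin-like growth factor, a secreted trophic factor for neurons and myelinating cells. Its levels were 93.2, 76.6 and 112 CPM at day 7, 25.5, 66.5 and 46.1 CPM at day 30, and 4.55, 11.9 and 8.46 CPM at day 90. The 3 times did not overlap at any point, and each later time lay wholly below the one before. Means were 94.1 ± 17.96, 46.0 ± 20.5 and 8.29 ± 3.66 CPM, and the log2 difference was -3.42 ± 0.42 for day 90 against day 7, -2.32 for day 90 against day 30 and -1.10 for day 30 against day 7.

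Lpl encodes lipoprotein lipase, which releases fatty acids from lipoprotein triglycerides. It had 435, 189 and 320 CPM at day 7, 187, 326 and 223 CPM at day 30, and 42.9, 61.6 and 61.7 CPM at day 90. Days 7 and 30 overlapped, and day 90 lay wholly below both. The mean at day 90, 55.4 ± 10.8 CPM, was 5.68-fold lower than at day 7 (315 ± 123 CPM) and 4.42-fold lower than at day 30 (245 ± 72.5 CPM). The log2 difference was -2.42 ± 0.27 and -2.10 for day 90 against days 7 and 30, and -0.32 for day 30 against day 7.

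Ch25h encodes cholesterol 25-hydroxylase, which converts cholesterol to an oxysterol that acts on antiviral defence and sterol sensing. It had 42.2, 25.8 and 31.8 CPM at day 7, 18.9, 20.8 and 6.92 CPM at day 30, and 0, 18.4 and 4.91 CPM at day 90. Day 90 overlapped day 30, and both later times lay below day 7. Means were 33.3 ± 8.31, 15.5 ± 7.53 and 7.77 ± 9.53 CPM. The log2 difference of -2.79 ± 0.75 for day 90 against day 7 carried the largest standard error of the 9 genes. Without replicate 1 at day 90, which had 0 reads, it was -1.65, and the day 90 against day 30 difference was -0.50 in place of -1.64. The day 90 against day 7 value was also -3.96 with a pseudocount of 0.1 CPM, -1.84 with 5 CPM and -2.08 in edgeR. With the replicate block, which sets replicate 1 at day 90 aside, it was -1.46.

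**Figure D1:**
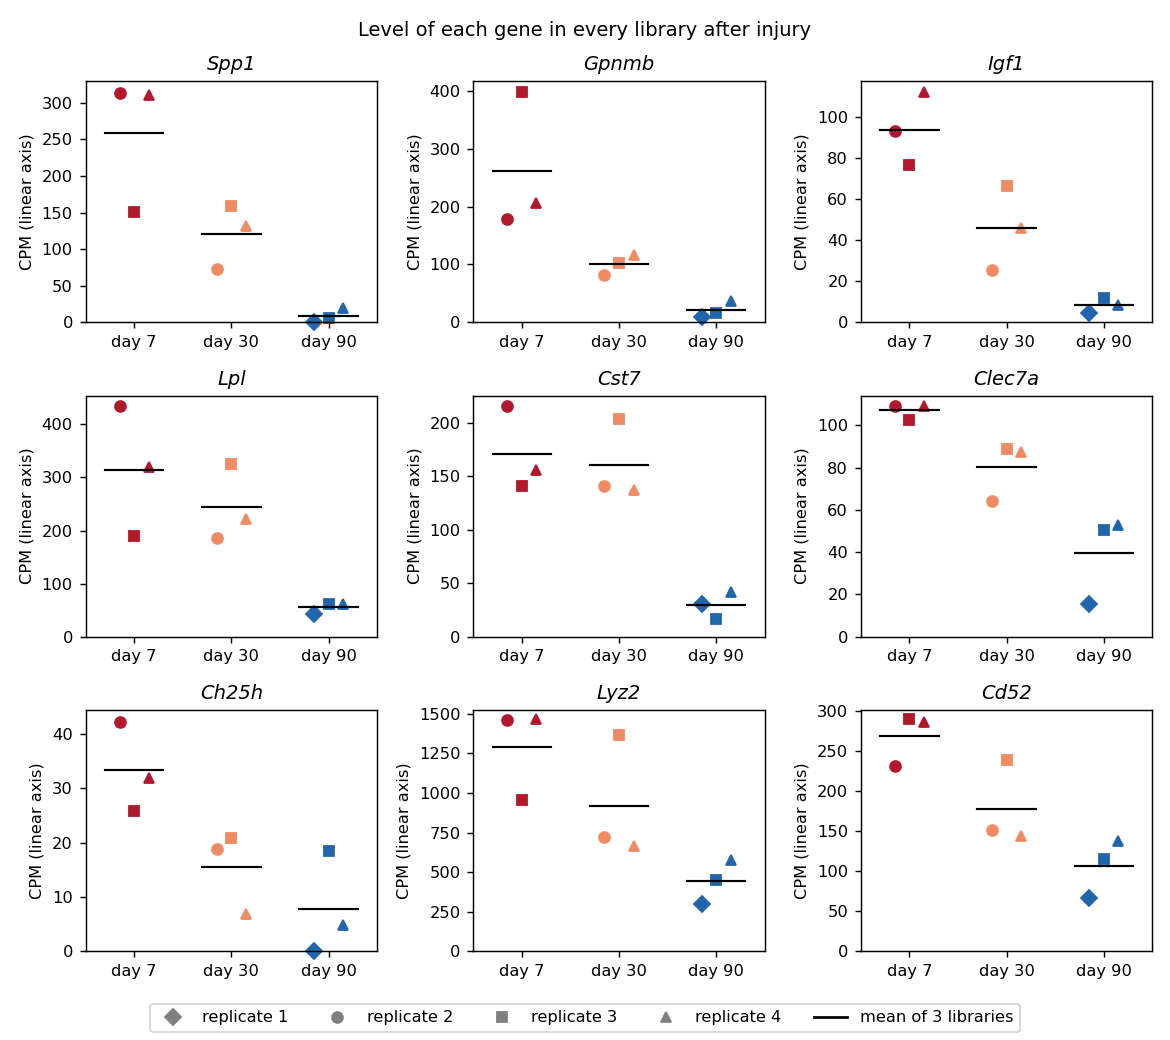
CPM of each of the 9 genes in each library (linear axis from 0, 1 panel a gene), with days 7, 30 and 90 after injury from left to right; each point is 1 mouse, its shape gives the replicate number and the line is the mean of 3. All 3 day 90 libraries sit below all 3 day 7 libraries for every gene, and for Ch25h 1 day 90 library reaches into the day 30 values.

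Gpnmb encodes a membrane glycoprotein of phagocytes that is rich in cells with a loaded lysosomal system. It had 179, 398 and 206 CPM at day 7, 81.6, 102 and 116 CPM at day 30, and 8.92, 16.4 and 37.1 CPM at day 90. No 2 times overlapped, and day 7 held the widest spread because replicate 3 stood above the other two. Means were 261 ± 120 CPM at day 7, 99.9 ± 17.4 CPM at day 30 and 20.8 ± 14.6 CPM at day 90. The log2 difference was -3.71 ± 0.36 for day 90 against day 7, -2.41 for day 90 against day 30 and -1.30 for day 30 against day 7, the largest of the 9 genes over the earlier interval.

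Clec7a encodes dectin, a receptor for fungal beta-glucan that signals through Syk. Its levels were 109, 103 and 109 CPM at day 7, 64.2, 88.7 and 87.3 CPM at day 30, and 15.7, 50.7 and 52.9 CPM at day 90. The 3 times did not overlap, and day 7 was tight, with an SD of 3.83 CPM around a mean of 107 CPM. The mean at day 90, 39.7 ± 20.9 CPM, was 2.69-fold lower than at day 7 and 2.01-fold lower than at day 30 (80.0 ± 13.8 CPM). Its log2 difference of -1.59 ± 0.34 for day 90 against day 7 was -1.03 without replicate 1 at day 90. That of -1.16 for day 90 against day 30 was then -0.60. The annotation used here classes Clec7a as a polymorphic pseudogene, a label for genes that are coding in some strains.

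Cd52 encodes a short glycoprotein anchored to the outer face of leukocytes. It had 231, 290 and 286 CPM at day 7, 152, 239 and 144 CPM at day 30, and 66.2, 115 and 138 CPM at day 90. Day 90 lay just below day 30, and day 30 overlapped day 7 through its highest library. The log2 difference, -1.38 ± 0.26 for day 90 against day 7, was the smallest of the 9, on means of 107 ± 36.8 CPM at day 90 and 269 ± 32.8 CPM at day 7. It was -1.08 without replicate 1 at day 90, and the day 90 against day 30 difference was then -0.45 in place of -0.76. Crybg2 (listed as Aim1l), on the opposite strand, has an exon within the last 500 bases of Cd52, and its own level was between 0 and 0.269 CPM.

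Cst7 encodes cystatin F, an inhibitor of lysosomal cysteine proteases. Its levels were 215, 141 and 156 CPM at day 7, 141, 203 and 137 CPM at day 30, and 30.2, 17.0 and 41.6 CPM at day 90. Days 7 and 30 had similar ranges, and day 90 lay far below both. Means were 171 ± 39.4, 160 ± 37.3 and 29.6 ± 12.3 CPM. The log2 difference was -2.55 ± 0.30 for day 90 against day 7, -2.46 for day 90 against day 30 and -0.09 for day 30 against day 7. The sign of that last value turned, to 0.09 without replicate 2 at day 7 and to 0.01 without replicate 4 at day 30.

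Lyz2 encodes lysozyme, an enzyme of myeloid cells that cleaves bacterial cell walls. It had 1463, 955 and 1465 CPM at day 7, 724, 1366 and 665 CPM at day 30, and 300.2, 451 and 579.9 CPM at day 90. Day 90 lay wholly below both earlier times, and day 30 overlapped day 7 through 1 high library. Means were 1294 ± 294, 919 ± 389 and 444 ± 140.0 CPM, with log2 differences of -1.57 ± 0.24 for day 90 against day 7 and -1.02 for day 90 against day 30. Lyz1, its neighbour on chromosome 10, matches the last 300 bases of the Lyz2 transcript in 93.8% of aligned columns, and 55 of 251 stretches of 50 bases there are shared. Reads from those stretches may have been dropped or given to the copy, which was not tested, so the Lyz2 level is uncertain. Lyz1 itself was listed at a mean of 0.412 CPM at day 90 and 2.64 CPM at day 7.

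Summed over the 9 genes, the level was 3082, 2329 and 2997 CPM at day 7, 1467, 2571 and 1556 CPM at day 30, and 468.6, 748.6 and 944.2 CPM at day 90. Lyz2 makes up much of that sum. Day 90 was lower than day 7 without overlap for 9 of 9 genes, where 6.27% of the 15041 genes tested were so placed, and the choice of the genes fixes this count. Day 90 was lower than day 30 without overlap for 8 of 9 (6.18% of all genes), and day 30 was lower than day 7 without overlap for 4 of 9, namely Gpnmb, Igf1, Clec7a and Ch25h (5.74% of all genes).

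A gene was called when its Benjamini-Hochberg adjusted p over all 15041 genes was under 0.05 in limma, a linear model that shares the spread between genes. In the comparison of day 90 with day 7, 8 of the 9 were among the genes called lower and Ch25h was not, with 0.206% of all genes called lower and 0.246% called in either direction. In that of day 90 with day 30, 5 of the 9 were called lower (Spp1, Gpnmb, Igf1, Lpl and Cst7), with 0.0532% of all genes called, all of them lower. At day 30 against day 7, 0 of the 9 and 0.0% of all genes were called in limma, with 939 genes at an unadjusted p under 0.05, 0 genes in edgeR and 34 in DESeq2. Nothing is read from the members' counts, since the genes were chosen on these contrasts. Their median log2 difference was -2.55 and -2.10 for day 90 against days 7 and 30, and -0.62 for day 30 against day 7, beside -0.024, -0.062 and 0.041 over all genes tested.

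Of the whole log2 difference between days 7 and 90, the part present by day 30 was computed from the means, with no test of the split. It was 3.52% for Cst7, 13.1% for Lpl and 19.5% for Spp1, and 35.0% for Gpnmb, 41.4% for Ch25h and 45.0% for Cd52. With 1 library left out in turn, the share ran between -3.75% and 10.7% for Cst7, between 2.11% and 23.4% for Lpl and between 13.6% and 24.9% for Spp1. Over the same settings it ran between 28.3% and 39.95% for Gpnmb, between 24.8% and 70.0% for Ch25h and between 35.3% and 61.6% for Cd52. With all libraries the larger part of the log2 difference lay between days 30 and 90, the longer interval, for all 9 genes. Without replicate 1 at day 90 the larger part lay before day 30 for Ch25h (70.0%) and Cd52 (57.8%), as it did without replicate 3 at day 30 for Cd52 (61.6%), Lyz2 (55.6%) and, narrowly, Ch25h. These ranges overlap for many of the genes, and no order in timing is read from them. At day 30 Cst7 and Lpl stood at 93.9% and 77.9% of their day 7 means, whereas Gpnmb, Ch25h, Spp1 and Igf1 were at 38.3% to 48.9%. In CPM, the means of Gpnmb, Spp1, Igf1, Ch25h and Cd52 dropped more before day 30 than after it. Those of Lpl, Cst7, Clec7a and Lyz2 dropped more after day 30.

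**Figure D2:**
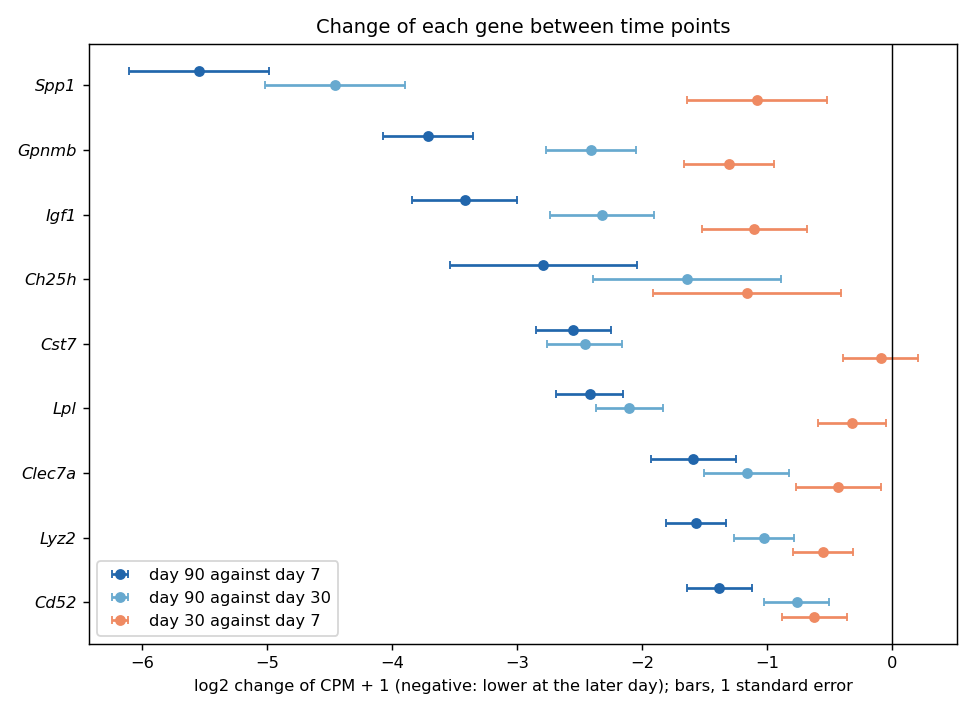
Log2(CPM + 1) differences of the 9 genes for day 90 against days 7 and 30 and for day 30 against day 7; points are differences of means of 3 mice and bars are standard errors from the model. Spp1 has the largest differences at day 90 (-5.55 and -4.46), and at day 30 against day 7 Cst7 (-0.09) and Lpl (-0.32) lie nearest to 0.

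Within a time, the genes ordered the mice in part alike. At day 30 replicate 3 was highest for 8 of the 9 genes, all but Gpnmb. At day 90 replicate 1 was lowest for 8 of the 9, all but Cst7, and replicate 4 was highest for 7. At day 7 the genes split: replicate 3 was lowest for 7 genes and highest for Gpnmb and Cd52. Over the 9 libraries, each gene's correlation with the mean profile of the other 8 lay between 0.824 (Ch25h) and 0.981 (Spp1), which describes genes that share libraries, depth and the time differences for which they were chosen.

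Positions and upstream sequence are given for 3 genes whose means differed in course, Spp1 and Gpnmb, with lower means at day 30, and Cst7, with a mean near its day 7 level then. On mm10, Spp1 lies at chr5:104435118-104441050, Gpnmb at chr6:49036546-49070929 and Cst7 at chr2:150570415-150578944, all on the plus strand. Igf1 lies at chr10:87858265-87937042 and Lpl at chr8:68880491-68907448 on the plus strand, and Clec7a at chr6:129461591-129472779, Ch25h at chr19:34473778-34475164, Lyz2 at chr10:117277331-117282321 and Cd52 at chr4:134082448-134095082 on the minus strand. Reads of the 3' tag method fall near transcript ends, and apart from Cd52 no other gene has an exon in the last 500 bases of any of the 9. The 250 bases before the RefSeq start (GRCm38.p6, plus strand, 5′ to 3′) span chr5:104434861-104435110 for Spp1, chr6:49036268-49036517 for Gpnmb and chr2:150570165-150570414 for Cst7. Capitals mark GAGGAAG, a core recognised by the myeloid factor PU.1.
Spp1: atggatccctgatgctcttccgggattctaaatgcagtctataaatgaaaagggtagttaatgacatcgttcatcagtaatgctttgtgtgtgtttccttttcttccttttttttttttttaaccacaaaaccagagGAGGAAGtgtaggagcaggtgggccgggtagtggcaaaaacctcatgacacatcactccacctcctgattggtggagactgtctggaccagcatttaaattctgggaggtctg
Gpnmb: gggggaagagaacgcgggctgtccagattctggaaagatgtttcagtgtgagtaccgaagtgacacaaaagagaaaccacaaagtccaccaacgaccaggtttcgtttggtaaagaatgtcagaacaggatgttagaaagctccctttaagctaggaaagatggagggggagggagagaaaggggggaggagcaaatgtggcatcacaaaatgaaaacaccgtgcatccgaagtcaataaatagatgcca
Cst7: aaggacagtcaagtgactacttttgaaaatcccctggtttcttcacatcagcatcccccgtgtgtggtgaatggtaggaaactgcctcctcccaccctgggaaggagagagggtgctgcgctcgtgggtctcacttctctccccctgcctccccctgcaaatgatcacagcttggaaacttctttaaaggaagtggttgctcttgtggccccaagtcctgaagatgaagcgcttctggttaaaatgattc
Short motifs were searched on both strands in the 7 of 9 genes with an entry. They were GAGGAAG for PU.1, the AP-1 motif TGANTCA, the E-box CACGTG and, for the MiT factors, the M-box TCATGTG. The PU.1 core occurred in 2 of the 7, Spp1 (its first base 113 bases before the start) and Igf1, and in 10.8% of the 9977 promoters of tested genes. The AP-1 motif occurred in Igf1 alone of the 7 and in 4.0% of those promoters, and the E-box (8.39%) and M-box (1.78%) occurred in none of the 7. A match is a run of letters and not a measured site.

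The wider disease-associated programme was read from 37 other genes, of which 36 passed the filter. This list, like the others here, was made with earlier results of these data known, so its counts are no independent check. At day 90 against day 7, 31 of the 36 had negative differences, where the median over all genes tested was -0.024. By day 90, relative to day 7, 9 of the 36 fell (Axl, Apoe, Lgals3, Plin2, Grn, Cd63, Ctsz, Ctsb and Gusb) and 0 rose, with 0.206% of all genes called lower and 0.0399% higher, and the median log2 change was -0.70. The other 27 did not pass. Relative to day 30, Axl and Apoe fell and 0 rose, with 0.0532% of all genes called, all of them lower, and the median was -0.38. At day 30 against day 7, limma called 0 of the 36, with 8 at an unadjusted p under 0.05, 0 by edgeR and 2 by DESeq2 (Grn and Plin2, lower), and the median was -0.17.

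Apoe, the main lipoprotein of brain lipid transport, had 4283, 5103 and 3701 CPM at day 7, 3447, 3921 and 3201 CPM at day 30, and 1065, 1630 and 2463 CPM at day 90. Day 90 lay wholly below both earlier times. It fell by 1.41 ± 0.23 on the log2 scale for day 90 against day 7 (limma, adjusted p = 0.000695) and by 1.11 for day 90 against day 30 (adjusted p = 0.0446). The second call was lost in 14 of 19 alternatives, among them 7 of the 9 that leave out 1 library, and over the 19 the adjusted p lay between 0.00254 and 0.9997. Without replicate 1 at day 90 that difference was -0.81.

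Axl, a receptor for phosphatidylserine on dying cells, had 188, 135 and 166 CPM at day 7, 165.0, 166 and 116 CPM at day 30, and 49.0, 39.0 and 68.7 CPM at day 90. Days 7 and 30 overlapped and day 90 lay wholly below, as for Lpl and Cst7. Axl fell by 1.65 ± 0.27 for day 90 against day 7 (limma, adjusted p = 0.000695) and by 1.51 ± 0.27 for day 90 against day 30 (adjusted p = 0.00673). The call at day 90 against day 30 was lost in 5 of 19 alternatives, namely without replicate 2 or 3 at day 30, without replicate 3 at day 90, with the replicate block and with no filter.

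Lgals3, a galectin of phagocytes, had 69.6, 59.5 and 82.7 CPM at day 7, 24.3, 69.3 and 40.5 CPM at day 30, and 7.14, 18.9 and 12.9 CPM at day 90. It fell by 2.44 ± 0.42 on the log2 scale at day 90 against day 7 (limma, adjusted p = 0.00196), the largest fall of the 9 called genes. Plin2, a lipid droplet coat protein, fell by 1.79 ± 0.29 (adjusted p = 0.000832), on 45.0 ± 7.55 CPM at day 90 and 160 ± 34.3 CPM at day 7. Plin2 was already at 63.9 ± 17.96 CPM at day 30. Its day 30 against day 7 difference of -1.32 did not pass in limma (adjusted p = 0.255), but passed in DESeq2 (adjusted p = 0.0125) and in limma without replicate 1 at day 90 (adjusted p = 0.0454).

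The other 5 called genes act in lysosomes or carry lysosomal cargo. Grn, the precursor of the granulins, fell by 1.16 ± 0.20 to 1002 ± 197 CPM at day 90, against 2236 ± 401 CPM at day 7 (limma, adjusted p = 0.00153). Cd63, a tetraspanin of late endosomes, fell by 1.08 (adjusted p = 0.00488), and the proteases Ctsb and Ctsz by 0.97 (adjusted p = 0.0440) and 0.93 (adjusted p = 0.0253). Gusb, a lysosomal glycosidase, fell by 0.95 (adjusted p = 0.0490). The calls of Axl, Apoe, Plin2, Grn and Lgals3 at day 90 against day 7 were each lost in 1 of 19 alternatives, the one without a filter on low values. Cd63 lost its call in 3, Ctsz in 10, Ctsb in 11 and Gusb in 14.

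**Figure D3:**
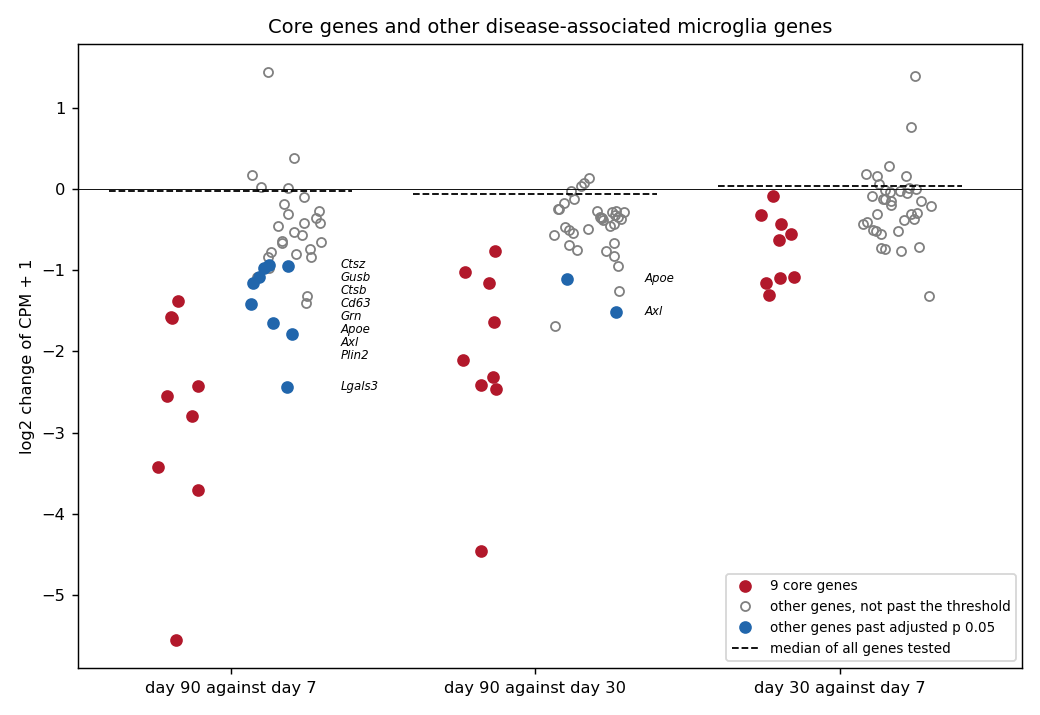
Log2(CPM + 1) changes of the 36 other genes of the programme (dots) (open dots, filled blue and named at the right where called) beside those of the 9 genes (red) for the 3 comparisons; the dashed line is the median of all genes tested. At day 90 against day 7 the 9 called genes all lie below 0, between -0.93 (Ctsz) and -2.44 (Lgals3).

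Trem2, the receptor on which the state depends in large part, averaged 1182 ± 62.4, 1318 ± 23.1 and 1125 ± 253 CPM at days 7, 30 and 90, with a log2 difference of -0.10 ± 0.19 for day 90 against day 7 (limma, adjusted p = 0.945). Its adaptor Tyrobp averaged 880 ± 82.4, 867 ± 136 and 739 ± 234 CPM, with a difference of -0.30 ± 0.21 (adjusted p = 0.766). Neither passed in any of the 3 comparisons, which does not show equal levels.

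Genes that act with the 9, as receptors, targets, cofactors or pathway enzymes, were listed as 59 distinct genes, of which 55 passed the filter. For day 90 against day 7, 1 of the 55 was called (Apoe, which also counts in the programme above), beside 0.246% of all genes. At day 90 against day 30 it was the same 1, beside 0.0532% of all genes. At day 30 against day 7 none was called in limma, beside 0.0% of all genes (7 of the 55 at an unadjusted p under 0.05, 0 by edgeR, 1 by DESeq2). Medians were -0.061, -0.105 and -0.072. Without replicate 1 at day 90, 3 were called at day 90 against day 7 (Apoe, Igfbp7 and Syk), and at day 90 against day 30 Apoe was not called.

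Among receptors of osteopontin, 8 passed the filter. Itgb5 averaged 1202 ± 252, 1437 ± 62.2 and 1343 ± 316 CPM at days 7, 30 and 90, and Itgb1 305 ± 48.2, 302 ± 17.5 and 291 ± 27.5 CPM, so that their log2 differences for day 90 against day 7 were 0.15 and -0.06. In the Igf1 axis, with 11 tested, the receptor Igf1r averaged 253 ± 33.7, 186 ± 14.02 and 208 ± 85.7 CPM. Igfbp7, a secreted binding protein also made by vessel cells, differed by -0.78 for day 90 against day 7 (limma, adjusted p = 0.412), and passed at -1.17 without replicate 1 at day 90 (adjusted p = 0.0228). Of 7 tested genes listed with Gpnmb, among them MiT factors, Tfe3 differed by 0.14 and Sdc4 by 0.09 at day 90 against day 7. Among the 7, 5 had positive and 2 negative differences, between -0.74 and 1.44, and none was called. Tfeb, named after its value was seen, differed by 1.11, with day 90 wholly above day 7, and did not pass (limma, adjusted p = 0.434).

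The 4 cysteine proteases that cystatin F can restrain or depend on differed by -0.42 to -0.10 at day 90 against day 7, and none was called. Lgmn averaged 1331 ± 416, 1346 ± 162 and 1219 ± 262 CPM and Ctsl 648 ± 189, 508 ± 33.0 and 473 ± 94.2 CPM at days 7, 30 and 90. The 6 tested genes of signalling below Clec7a all had positive differences for day 90 against day 7, between 0.11 (Prkcd) and 0.72 (Syk, the kinase next to the receptor), with a median of 0.56 and none called. Syk, named after its value was seen, passed without replicate 1 at day 90 at 1.12 (limma, adjusted p = 0.0499). Of 7 tested genes of oxysterol handling, the cholesterol exporter Abca1 averaged 325 ± 70.8, 266 ± 12.8 and 206 ± 31.8 CPM, a difference of -0.64 for day 90 against day 7 that did not pass (limma, adjusted p = 0.336). Abcg1, a sterol exporter of the same list named after its values were seen, averaged 58.4 ± 3.20 CPM at day 90 and 125 ± 22.1 CPM at day 7, without overlap. Its difference of -1.07 did not pass in limma (adjusted p = 0.132) and did in DESeq2 (adjusted p = 0.0183). Siglecg, a lectin of the Siglec family, to which receptors for soluble CD52 belong in human, had 20.9, 4.46 and 4.82 CPM at day 90 and 0, 1.25 and 9.72 CPM at day 7, and did not pass (adjusted p = 0.721).

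The 10 genes outside the 9 whose profiles were most like their mean profile were sought among 8488 genes with a mean of at least 10 CPM, by Pearson correlation over the 9 libraries. They were Lgals3 (r = 0.969), Nrp2 (0.962), Cenpa (0.960), Apoe (0.955), Psen2 (0.953), Creg1 (0.950), Ctsb (0.943), Stx17 (0.940), Ttyh2 (0.933) and Nek1 (0.930). Without replicate 1 at day 90 their correlations lay between 0.85 and 0.954. Nrp2, a semaphorin receptor, averaged 84.6, 79.0 and 42.7 CPM at days 7, 30 and 90. Creg1, a lysosomal glycoprotein, averaged 435, 374 and 241 CPM. Cenpa, a histone variant of centromeres, averaged 24.6, 6.75 and 1.35 CPM. The ranking describes 9 libraries that share the time differences.

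Several of the 9 genes are also expressed by other myeloid cells, Lyz2, Cd52 and Clec7a among them, so markers of those cells are set beside them. Summed neutrophil markers lay between 69.0 and 247 CPM at day 7, between 4.48 and 70.4 CPM at day 30 and between 1.61 and 85.1 CPM at day 90, with Elane and Mpo at 0 in every library. The day 7 maximum was in replicate 3, the library lowest of its time for 7 of the 9 genes and highest for Gpnmb and Cd52. Of the 7 neutrophil markers tested, 5 had negative and 2 positive differences at day 90 against day 7. Only Lcn2, a lipocalin, was called, as lower (limma, adjusted p = 0.0147). At day 7 Lcn2 had 61.95, 5.82 and 47.9 CPM in replicates 2, 3 and 4, lowest in the library where the summed markers were highest. Summed over 14 monocyte markers the level overlapped between times, at 1126 to 1872, 1104 to 1398 and 1123 to 2159 CPM, with Nr4a1, which microglia also express, the most abundant. Of the 11 monocyte markers tested, 10 had negative differences for day 90 against day 7. Their median was -1.03, with 0 called in limma, edgeR or DESeq2 and 2 at an unadjusted p under 0.05. Summed without Nr4a1, a choice made after the values were seen, they lay at 281 to 342, 141 to 208 and 135 to 246 CPM, so that days 7 and 90 did not overlap, with Fn1 the most abundant. The defining monocyte markers Ly6c2, Ccr2, Plac8 and Chil3, grouped after their values were seen, summed to 0.796 to 41.1, 2.63 to 16.8 and 0.803 to 16.6 CPM. Their day 7 maximum was also in replicate 3. The 10 markers of border macrophages summed to 254 to 328, 185 to 232 and 216 to 315 CPM. Within that list 4 had positive and 6 negative differences at day 90 against day 7, between -2.40 (Folr2) and 1.72 (Cd209f). In limma and edgeR 0 were called, in DESeq2 1, and 2 had an unadjusted p under 0.05. The part of these cells in the differences was not tested.

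Markers of T and NK cells summed to 3.71 to 8.74, 0.463 to 4.03 and 0.474 to 11.2 CPM at days 7, 30 and 90, with Ncr1 and Prf1 at 0 in every library, and B cell markers to 222 to 301, 327 to 418 and 276 to 318 CPM, mostly Ighm, with Cd79a, Ms4a1 and Pax5 at 0 in every library. Astrocyte markers summed to 168 to 271, 241 to 310.1 and 194 to 283 CPM, and oligodendrocyte markers to 247 to 324, 277 to 369 and 187 to 373 CPM, at the same times. Summed neuron markers were 1147 to 1338 CPM at day 7, 1598 to 3177 CPM at day 30 and 1013 to 1847 CPM at day 90, and endothelial and pericyte markers were 2209 to 3541, 1619 to 2191 and 1324 to 4063 CPM, highest in replicate 1 at day 90. Of the 19 immediate early genes, which cell isolation can induce, 17 had positive differences at day 90 against day 7, with a median of 0.35, 0 called in limma or edgeR, 5 in DESeq2 and 7 at an unadjusted p under 0.05. Of the 12 homeostatic microglia genes, 8 had positive and 4 negative differences in that comparison, with a median of 0.26. In limma and edgeR 0 were called, in DESeq2 1, and 4 had an unadjusted p under 0.05. The part of RNA from other cells or of handling in the lower day 90 levels of the 9 genes was not tested.

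**Figure D4:**
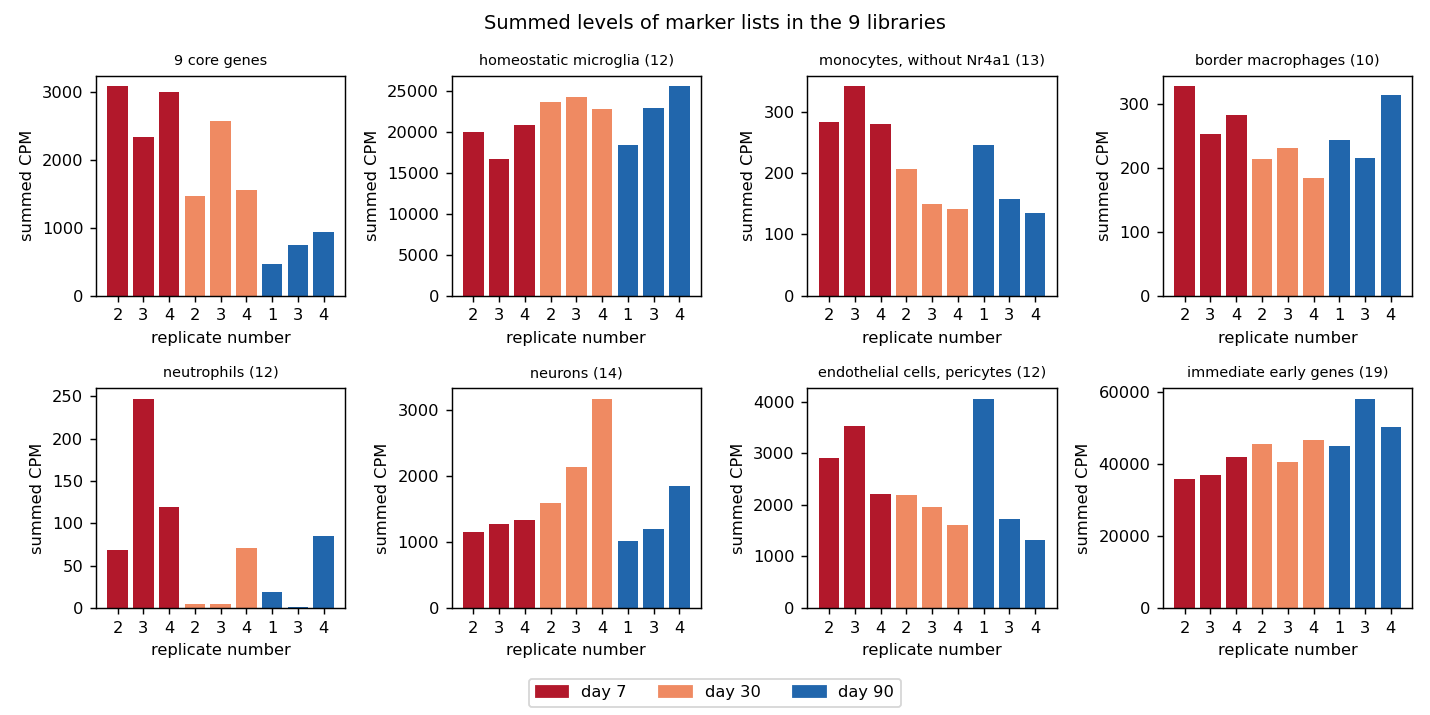
Summed CPM in each library (linear axis from 0) of the 9 genes and of marker lists at days 7, 30 and 90, with 1 bar a mouse, labelled by replicate number. The 9 genes lie in separate ranges at day 90 (468.6 to 944.2 CPM) and day 7 (2329 to 3082 CPM). So do monocyte markers without Nr4a1 (135 to 246 CPM and 281 to 342 CPM), which was left out after the values were seen. With Nr4a1 the monocyte sums overlap (1123 to 2159 CPM at day 90, 1126 to 1872 CPM at day 7). Border macrophage sums overlap too.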

How the data were processed

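The deposited table gives CPM of 49671 mouse genes in 9 libraries, 3 mice at each of 7, 30 and 90 days after injury. Per the labels' protocols, RNA of sorted microglia was made into QuantSeq 3' mRNA libraries, which count 1 tag near the end of each transcript, and sequenced on a NextSeq 500. Per the submitters' processing notes, the authors' tools were bcl2fastq, STAR and HTSeq, and their genome build was mm10; the sources used here give no version, annotation release or strand setting. Without a stated strand setting, reads of overlapping genes on opposite strands cannot be told apart.

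The CPM values deposited by the authors correspond to whole reads (100.0% of values, tolerance 1e-06), which set the depths. Values were analysed as log2(CPM + 1), and the added 1 CPM shrinks differences of low genes. A library with 0 reads can act the other way. For day 90 against day 7, Spp1 was at -5.55 here and -4.91 in edgeR, and Ch25h at -2.79 and -2.08. In limma 3.58.1 under R 4.3.3, 1 mean a time was fitted over all 9 libraries by lmFit and eBayes with a trend, with 6 residual and 28.4 prior degrees of freedom. The 15041 genes that reached 1 CPM in at least 3 libraries were tested, and two-sided p-values were Benjamini-Hochberg adjusted over them at a threshold of 0.05. These p-values set each difference against the spread between mice, which is in large part shared over genes. The script was tested on simulated data. edgeR 4.0.16 and DESeq2 1.42.0 were run on the recovered reads as alternatives.

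The 9 genes and all lists were chosen with earlier results of these data known. Of the other programme genes and each partner list, the genes named are those past the threshold in any comparison, Apoe, Trem2 and Tyrobp in every case, and the most abundant pair where none passed. Of marker lists the sum is given, and the 10 genes most alike are named. Syk, Abcg1, Tfeb and the divided monocyte list were picked after their values were seen. Gene positions are from GENCODE M21 on mm10, and promoters from RefSeq on GRCm38.p6.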

Additional observations from a re-analysis of the deposited data

How the results depend on the processing

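The settings varied were the pseudocount (0.1 or 5 CPM), the filter (none, or 10 CPM), the scaling (median-of-ratios or quantile), a robust spread, a replicate block, edgeR, DESeq2 and each library left out in turn. Of 513 values of the 9 genes under an alternative, 511 kept their direction. Cst7 for day 30 against day 7 lay between -0.27 and 0.09 with a library left out. It reversed, to 0.09 without replicate 2 at day 7 and 0.01 without replicate 4 at day 30. The filters, the robust spread and a library left out from a time outside the comparison cannot change these values. The count of 511 therefore includes values that were fixed in advance. Of values for other named genes, 76 lost and 8 gained a call.

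Genes called at day 90 against day 7 numbered 37, and 1 without a filter, 22 with edgeR, 130 with DESeq2 and 18 to 62 with a library left out (62 without day 90 replicate 1, 18 without day 7 replicate 2). At day 90 against day 30 they numbered 8, and 0 without a filter, 27 with DESeq2 and 4 to 18 with a library left out (18 without day 90 replicate 4). At day 30 against day 7 they numbered 0, and 3 with a pseudocount of 5, 2 with quantile normalization, 34 with DESeq2 and 0 to 8 with a library left out (8 without day 90 replicate 1). With no filter, 0 of the 9 genes were called at day 90 against day 7 or day 30; with a library left out, 6 to 9 and 4 to 6 were.

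Other programme genes called at day 90 against day 7 (9) were 0 with no filter and 6 to 9 with a library left out. At day 90 against day 30 (2) they were 0 with no filter, 1 each with a pseudocount of 0.1, the 10 CPM filter, scaling by median of ratios, a robust spread and edgeR, and 0 to 3 with a library left out. At day 30 against day 7 (0) they were 2 with DESeq2 and 0 to 1 with a library left out. Partner genes at day 90 against day 7 (1) were 0 with no filter, 2 with DESeq2 and 1 to 3 with a library left out. At day 90 against day 30 (1) they were 0 with a pseudocount of 0.1, no filter, the 10 CPM filter, scaling by median of ratios, a robust spread or edgeR, 2 with DESeq2, and 0 to 1 with a library left out. At day 30 against day 7 (0) they were 1 with DESeq2. The cause of these shifts was not tested.

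Same-numbered libraries deviated together with correlations of -0.045 to 0.039, and differently numbered ones with -0.058 to 0.041. Over all genes, same-numbered mice were thus no more alike, which does not show that the numbers carry no pairing. Replicate number 1 occurs only at day 90, so the replicate block also sets that library aside. With the block, the counts for day 90 against days 7 and 30, then for day 30 against day 7, were 42, 6 and 10 genes, 5, 0 and 1 other programme genes, and 2, 0 and 0 partner genes. With 3 mice a time and 1 library with 0 reads of Spp1 and Ch25h, the day 90 levels of those genes are the least certain.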
